A study of Rattus norvegicus with 16 samples.

Results

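A set of 10 liver genes with no settled place in the known responses to molecular hydrogen are described here across hydrogen treatment and diet. They are Lgalsl, Tmcc3, Dipk2a, Wasf1, Rusc2, Fzd8, Sirt4, Pnrc1, Stambpl1 and Btbd2, which makes 10 of the 13438 genes that the platform annotation ties to a probe set of a single symbol. The genes were chosen by their measured hydrogen differences in these arrays, so their hydrogen values below are a description and carry no test. The diet difference, averaged over hydrogen and control rats, is computed from other sums of the same arrays and was tested. A probe set is the group of array probes read as 1 value, and the 10 symbols had 17 of them. Each gene is represented by its probe set of highest mean over the 16 arrays, and all 10 representing probe sets passed the filter on low signals (above 3.68 log2 on at least 4 arrays).

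The animals were male rats of the inbred F344 strain, 4 weeks old per the labels and reared for 3 weeks, with 1 array of whole liver RNA per sample and 4 samples in each of 4 groups. The hydrogen CDAA group was fed the CDAA diet (choline-deficient, L-amino acid-defined), on which rat livers turn fatty, and received hydrogen as water holding 0.7 mM and as air holding 2%. The control CDAA group ate the same diet with dehydrogenized water in plain air. The hydrogen normal and control normal groups ate CE-2 chow under the same pairs of water and air. Drinking and breathing hydrogen always came together, so the routes cannot be told apart, and the hour at which livers were taken is not stated in the labels. The tissue was bulk liver, in which fewer cells of a type and less RNA per cell cannot be told apart.

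The 10 genes come from unrelated families. Lgalsl encodes a galectin-like protein, and galectins are lectins that bind galactose-containing sugars. TMCC proteins are coiled-coil membrane proteins of the endoplasmic reticulum, and Dipk2a encodes a kinase-like protein of the secretory pathway. Wasf1 encodes WAVE1, which joins the Rac GTPase to the actin-nucleating Arp2/3 complex, and Rusc2 encodes a RUN and SH3 domain protein that binds Rab GTPases of vesicle traffic. Fzd8 is a Frizzled receptor for Wnt ligands, which in liver help set the zonation of hepatocyte metabolism, and Stambpl1 encodes a metalloprotease of the JAMM class that cuts ubiquitin chains. Pnrc1 encodes a proline-rich coactivator of nuclear receptors, Btbd2 a BTB domain protein known to bind topoisomerase I in human cells, and Sirt4 a sirtuin of the mitochondrial matrix. Bmal1 and Dbp serve as the time-keeping comparison. BMAL1 is the activator of the circadian clock and drives Dbp through E-box sites, DBP in turn binds D-box sites, and in liver the 2 transcripts peak at opposed phases of the day.

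Because the members are set beside clock genes, promoter windows of 250 bases before to 50 bases after the start site were searched for clock elements on both strands. The RefSeq table for GRCr8 held windows for 7 members, all but Lgalsl, Pnrc1 and Stambpl1. The E-box CACGTG was present in 6.42% of all 33469 windows, the D-box TTATGTAA in 0.893% and the REV-ERB and ROR element core TAGGTCA in 2.63%. Among the 7 member windows, 0 held any of these letters, which says nothing of sites elsewhere. The Bmal1 window held 1 TAGGTCA. The Dbp window held 0 of each element, although BMAL1 drives Dbp through E-box sites. An empty window therefore does not tell whether a gene is under the clock. The stretches just before the start site are shown for Tmcc3, which had the largest hydrogen difference on the CDAA diet among the members with a window, for Rusc2, which had the highest within-group correlation with Dbp, and for Bmal1 with its element in capitals. They lie on the plus strand at chr7:30987033-30987132, chr5:62449780-62449879 and chr1:176766228-176766327 of GRCr8, and the element of Bmal1 starts 16 bases before its start site.
Tmcc3: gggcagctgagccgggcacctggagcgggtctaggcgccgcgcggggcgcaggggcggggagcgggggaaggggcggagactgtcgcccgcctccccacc
Rusc2: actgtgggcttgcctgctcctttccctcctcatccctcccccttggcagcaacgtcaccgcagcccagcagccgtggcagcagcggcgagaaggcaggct
Bmal1: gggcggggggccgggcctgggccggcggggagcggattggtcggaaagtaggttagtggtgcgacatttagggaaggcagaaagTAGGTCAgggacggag

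The deposited values were log2 signals from 2.42 to 13.73, with array medians of 4.33 to 4.37. The number of arrays, not a read depth, limits the precision. The leading principal component held 66.0% of the variance and separated the diets. Control normal replicate 4 lay at −13.4 on it, against −32.3, −35.1 and −32.5 for the rest of its group. All 6 hepatocyte markers on the array were above 3.68 log2 on every array, and of 41 markers of 11 cell types limma called 0 for hydrogen on either diet (4 on the CDAA diet and 2 on the normal diet at an unadjusted p under 0.05). The CDAA diet raised 5 of 6 stellate cell markers and lowered 0. It raised 3 of 5 Kupffer cell and macrophage markers and lowered 1. Over all 11434 genes the diet called 38.1% higher and 22.4% lower. Differences between arrays below are on the log2 scale, a fold is 2 to that power, and the level of one probe set cannot be set against that of another.

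On the CDAA diet, 4 members were lower under hydrogen by 1.61-fold to 2.18-fold and 3 were higher by 1.28-fold to 1.46-fold, with no overlap between the groups. On the normal diet a partly different set stood apart, with Wasf1 and Btbd2 higher and Lgalsl, Stambpl1 and Tmcc3 lower. Lgalsl and Tmcc3 were the members whose hydrogen arrays lay below all control arrays on both diets. In the fit across all probe sets 7 of the 10 passed an adjusted p of 0.05 on the CDAA diet, where 0.376% of the 11434 genes did, and 1 of 10 on the normal diet, where 0.00875% did. Leaving out control CDAA replicate 1 or control CDAA replicate 3 left 3 members called on the CDAA diet (Lgalsl, Tmcc3 and Dipk2a), and leaving out control CDAA replicate 4, hydrogen CDAA replicate 1 or hydrogen CDAA replicate 2 left 4. Over all 22634 probe sets, leaving out 1 array gave 21 to 346 calls on the CDAA diet, against 71 with all arrays. A fit to only the 2 groups compared called 1 member on the CDAA diet (Tmcc3), among 2 calls over the 22634 probe sets. On the normal diet such a fit called 4 members (Btbd2, Lgalsl, Stambpl1 and Wasf1), among 17 calls. Groups that did not overlap were found for 7 members on the CDAA diet and for 5 on the normal diet, against 3.76% and 5.69% of all genes. These counts only restate how the genes were chosen.

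**Figure D1:**
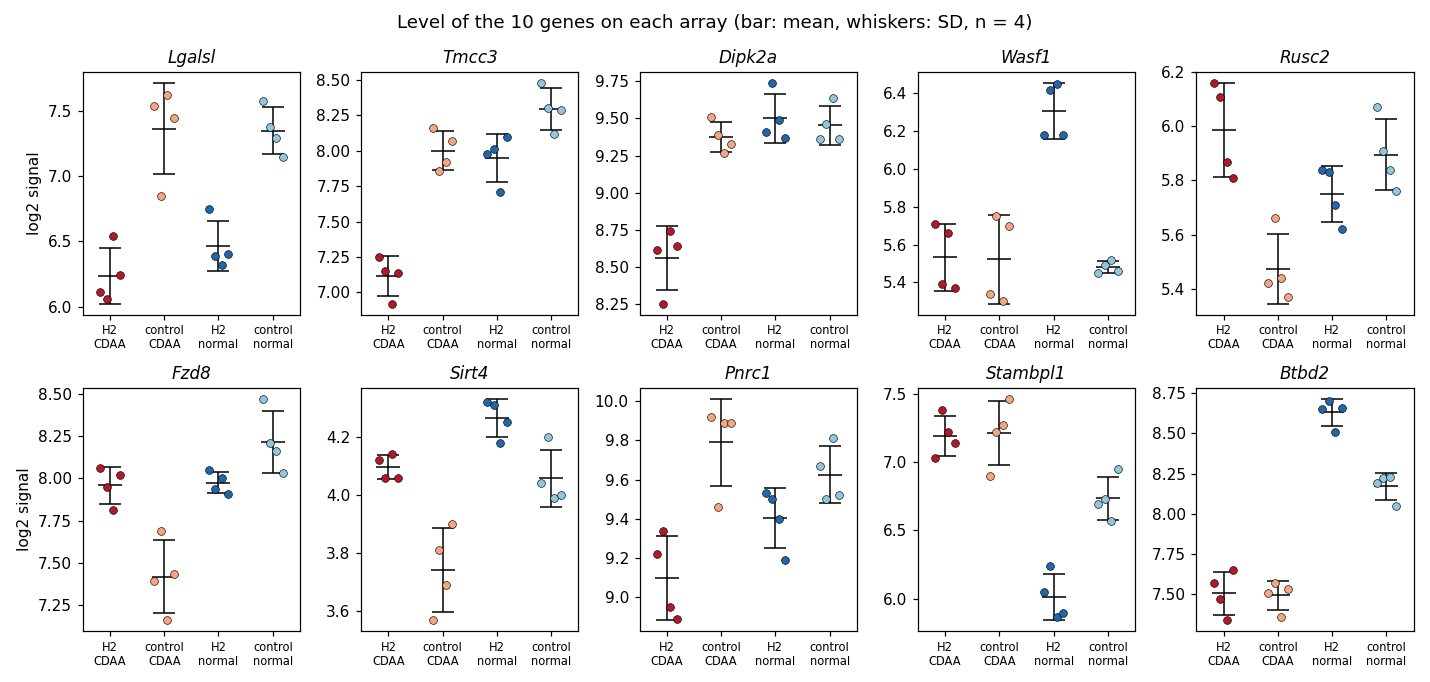
Log2 signal (vertical axis) of the 10 genes on each of the 16 arrays, with hydrogen left of control and the CDAA diet left of the normal diet; points are arrays, long bars are group means and whiskers are SD (n = 4 each). Lgalsl and Tmcc3 are lower under hydrogen on both diets, Dipk2a and Pnrc1 separate on the CDAA diet, and Wasf1, Stambpl1 and Btbd2 separate on the normal diet. Vertical scales differ between genes and do not start at 0.

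Among the lectin-like and secretory genes, Lgalsl was lower under hydrogen on both diets. It measured 6.11, 6.06, 6.54 and 6.24 log2 in hydrogen CDAA rats and 7.54, 6.85, 7.62 and 7.45 log2 in control CDAA rats. The values were 6.75, 6.39, 6.32 and 6.40 in hydrogen normal rats and 7.58, 7.38, 7.29 and 7.15 in control normal rats. All 8 hydrogen arrays lay below all 8 control arrays, and control CDAA replicate 2 was the lowest of the controls. The difference was −1.13 ± 0.155 (standard error of the fit), or 2.18-fold lower, on the CDAA diet and −0.88 ± 0.155, or 1.85-fold lower, on the normal diet. A further Lgalsl probe set was below 3.68 log2 on all 16 arrays, where no fold is given.

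Tmcc3 was lower under hydrogen on both diets, and more so on the CDAA diet. It measured 7.25, 7.15, 6.92 and 7.14 log2 in hydrogen CDAA rats against 8.16, 7.86, 7.92 and 8.07 in control CDAA rats. The values were 7.98, 8.01, 7.71 and 8.10 in hydrogen normal rats against 8.48, 8.30, 8.12 and 8.29 in control normal rats. The gap between the groups was wide on the CDAA diet, while on the normal diet the highest hydrogen array lay just below the lowest control array. The difference was −0.89 ± 0.099 (1.85-fold lower) and −0.35 ± 0.099 (1.27-fold lower), in the same order. A further probe set of Tmcc3, which also passed the filter, differed by −0.44 without overlap on the CDAA diet and by −0.12 with overlap on the normal diet.

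Dipk2a stood apart on the CDAA diet. The hydrogen CDAA arrays measured 8.61, 8.25, 8.74 and 8.64 log2, against 9.51, 9.39, 9.27 and 9.33 for the control CDAA arrays. Hydrogen normal arrays measured 9.41, 9.74, 9.49 and 9.37 and control normal arrays 9.36, 9.46, 9.64 and 9.36. The hydrogen CDAA group was the low group of the 4, and the other 3 groups overlapped. Hydrogen minus control was −0.82 ± 0.105 (1.76-fold lower) on the CDAA diet and 0.05 ± 0.105 on the normal diet. A further probe set of Dipk2a was below 3.68 log2 on 12 of 16 arrays, all 8 CDAA arrays among them, so no difference is given.

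Of the actin and traffic genes, Wasf1 separated on the normal diet. It measured 6.18, 6.42, 6.45 and 6.18 log2 in hydrogen normal rats against 5.45, 5.49, 5.52 and 5.46 in control normal rats. On the CDAA diet the values were 5.71, 5.39, 5.66 and 5.37 under hydrogen and 5.34, 5.75, 5.30 and 5.70 in controls. The hydrogen normal group was high and did not overlap any other group, the control normal group was tight (SD 0.03, n = 4), and both CDAA groups held 2 arrays at or above 5.66 and 2 at or below 5.39. The difference was 0.83 ± 0.109 (1.77-fold higher) on the normal diet and 0.01 ± 0.109 on the CDAA diet.

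Rusc2 stood apart on the CDAA diet. It measured 6.16, 6.11, 5.87 and 5.81 log2 in hydrogen CDAA rats against 5.42, 5.66, 5.44 and 5.37 in control CDAA rats. Hydrogen normal rats measured 5.84, 5.83, 5.71 and 5.62, against 6.07, 5.91, 5.84 and 5.76 in control normal rats. The control CDAA group was low, and the hydrogen CDAA group overlapped the control normal group. The difference was 0.52 ± 0.0925 (1.43-fold higher) on the CDAA diet and −0.14 ± 0.0925 on the normal diet.

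The Wnt receptor gene Fzd8, like Rusc2, had its lowest mean in control CDAA livers. It measured 8.06, 7.95, 7.81 and 8.02 log2 in hydrogen CDAA rats against 7.39, 7.69, 7.16 and 7.43 in control CDAA rats. Hydrogen normal rats measured 8.05, 7.94, 8.00 and 7.91, and control normal rats 8.47, 8.21, 8.16 and 8.03. The hydrogen groups of the 2 diets overlapped each other, and their means lay between a low control CDAA mean and a high control normal mean. The difference was 0.54 ± 0.103 (1.46-fold higher) on the CDAA diet and −0.24 ± 0.103 (1.18-fold lower, groups overlapping) on the normal diet.

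The deubiquitinase gene Stambpl1 differed with hydrogen on the normal diet. It measured 6.05, 6.24, 5.87 and 5.90 log2 in hydrogen normal rats against 6.69, 6.73, 6.57 and 6.95 in control normal rats. On the CDAA diet it measured 7.03, 7.38, 7.22 and 7.14 under hydrogen and 6.90, 7.22, 7.27 and 7.46 in controls. The 2 CDAA groups shared 1 range above the hydrogen normal group, which was the lowest of the 4. The difference was −0.72 ± 0.117 (1.65-fold lower) on the normal diet and −0.02 ± 0.117 on the CDAA diet.

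Among the nuclear and mitochondrial genes, Pnrc1 was lower under hydrogen on the CDAA diet. It measured 9.22, 9.34, 8.95 and 8.89 log2 in hydrogen CDAA rats against 9.92, 9.46, 9.89 and 9.89 in control CDAA rats. Hydrogen normal rats measured 9.53, 9.50, 9.40 and 9.19, and control normal rats 9.67, 9.50, 9.81 and 9.52. Control CDAA replicate 2 lay far below the other 3 arrays of its group, and the normal diet groups overlapped. The difference was −0.69 ± 0.121 (1.61-fold lower) on the CDAA diet and −0.22 ± 0.121 on the normal diet.

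Sirt4 had low signals throughout, close to the line used for the filter. It measured 4.12, 4.06, 4.14 and 4.06 log2 in hydrogen CDAA rats against 3.57, 3.81, 3.69 and 3.90 in control CDAA rats. Hydrogen normal rats measured 4.32, 4.31, 4.18 and 4.25, and control normal rats 4.04, 4.20, 3.99 and 4.00. Every hydrogen CDAA array lay above every control CDAA array, and 1 array, control CDAA replicate 1, was below the line. The difference was 0.35 ± 0.0701 (1.28-fold higher) on the CDAA diet and 0.21 ± 0.0701 on the normal diet, where the groups overlapped.

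Btbd2 depended on which probe set was read. Its representing probe set measured 8.65, 8.70, 8.51 and 8.66 log2 in hydrogen normal rats against 8.19, 8.22, 8.23 and 8.05 in control normal rats. On the CDAA diet it measured 7.57, 7.47, 7.34 and 7.65 under hydrogen and 7.51, 7.57, 7.36 and 7.53 in controls. The hydrogen normal group was the highest of the 4 and the CDAA groups overlapped. The difference was 0.46 ± 0.0729 (1.37-fold higher) on the normal diet and 0.02 ± 0.0729 on the CDAA diet. The further probe set, above 3.68 log2 on all 16 arrays, averaged 6.18 ± 0.05 in hydrogen normal rats and 6.18 ± 0.03 in control normal rats (SD, n = 4 each), so the hydrogen difference of Btbd2 was seen on 1 of its 2 probe sets.

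The difference between the diets in the effect of hydrogen (interaction) was largest in size for Dipk2a at −0.86, Wasf1 at −0.82 and Fzd8 at 0.78. It was between 0.44 and 0.70 in size for Stambpl1, Rusc2, Tmcc3, Pnrc1 and Btbd2, and smallest for Lgalsl at −0.24 and Sirt4 at 0.14. At an adjusted p of 0.05, 0 of 10 members were called in limma, as were 0 of the 11434 genes (0%). At an unadjusted p under 0.05 it was 8 of 10 members against 9.27% of all genes, a count that the choice of members also shaped. Without control CDAA replicate 2, Fzd8 (0.88) and Rusc2 (0.72) were called, among 21 calls over 22634 probe sets. Leaving out any other array called no member.

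**Figure D2:**
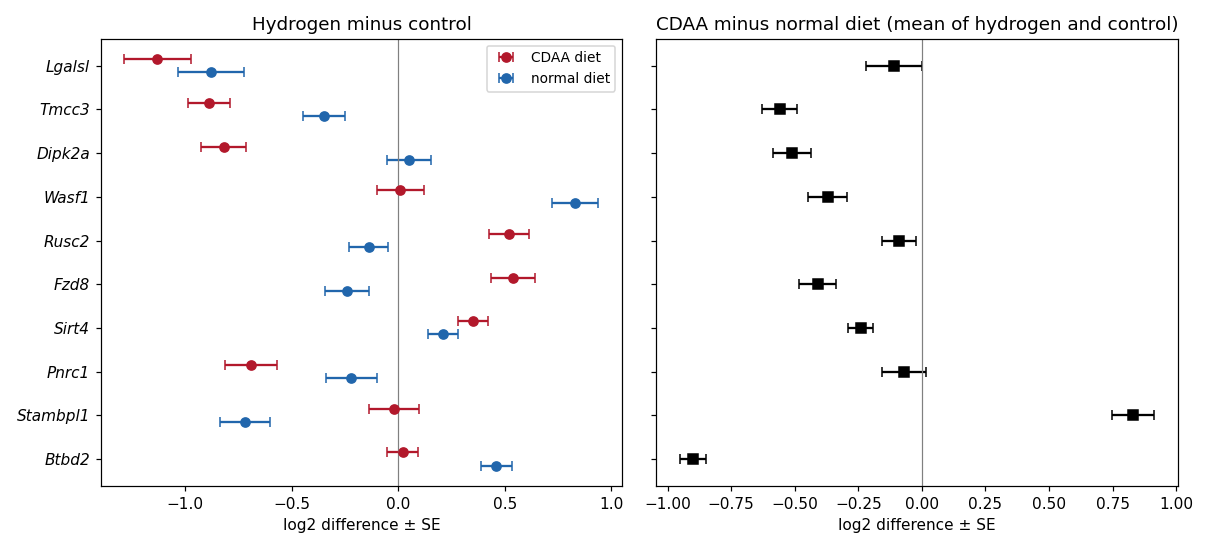
Left, hydrogen minus control (log2) of each gene on the CDAA diet (red) and on the normal diet (blue); right, CDAA minus normal diet averaged over hydrogen and control rats (log2). Points are estimates of the fit to 16 arrays, bars are standard errors, and the line at 0 marks no difference. Rusc2 and Fzd8 lie on opposite sides of 0 on the 2 diets, and Stambpl1 is the member with a clearly positive diet difference.

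The CDAA diet changed 7 of the 10 members, 1 upward and 6 downward, in the comparison that the choice of genes did not use. Over all 11434 genes 60.6% were called, 38.1% higher and 22.4% lower, so a share of 7 in 10 is near the background. Stambpl1 rose by 0.83 ± 0.0827 (1.77-fold, limma adjusted p = 6.59e-07). Btbd2 was 1.87-fold lower (−0.90 ± 0.0515, limma adjusted p = 6.37e-09), and its further probe set was lower by −0.46 as well (limma adjusted p = 1.31e-07). For Stambpl1 and Btbd2 the diet difference was present under hydrogen (1.18 and −1.12) and in control rats (0.48 and −0.68). Here and below, such values for hydrogen or control rats alone are a description. The gap between them is the interaction, so the average alone is free of the choice of genes. All 8 CDAA arrays lay below all 8 normal diet arrays for Btbd2.

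Tmcc3 was 1.48-fold lower on the CDAA diet (−0.56 ± 0.07, limma adjusted p = 5.64e-06) and so was its further probe set (−0.55, limma adjusted p = 1.06e-05). Dipk2a fell by 0.51 ± 0.0743 on the log2 scale (limma adjusted p = 2.73e-05), Fzd8 by 0.41 ± 0.073 (0.0002), Wasf1 by 0.37 ± 0.0769 (0.000792) and Sirt4 by 0.24 ± 0.0496 (0.000639). In several of these the average joins unlike values, whose gap is the interaction that the choice of genes also shaped. Dipk2a differed between diets by −0.94 under hydrogen and −0.08 in control rats, and Wasf1 by −0.78 under hydrogen and 0.04 in control rats. Fzd8 went the other way round, with −0.02 under hydrogen and −0.80 in control rats. Sirt4 differed by −0.17 under hydrogen and −0.31 in control rats.

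Rusc2, Lgalsl and Pnrc1 did not pass the test, with average diet differences of −0.09 ± 0.0654, −0.11 ± 0.109 and −0.07 ± 0.0855 (limma adjusted p = 0.239, 0.42 and 0.5). With the arrays quantile-normalised again, Rusc2 was called lower, at −0.21 (limma adjusted p = 0.00704). Under hydrogen and in control rats the diet difference of Rusc2 was 0.24 and −0.42, that of Pnrc1 −0.30 and 0.17, and that of Lgalsl −0.23 and 0.02. Stellate markers moved with the diet, their summed level being 9.86 to 10.08 log2 in hydrogen CDAA rats, 9.61 to 9.93 in control CDAA rats, 8.99 to 9.21 in hydrogen normal rats and 9.01 to 9.39 in control normal rats. Bile duct markers, of which 1 of 4 tested was called (higher) and Sox9 was below 3.68 log2 on every array, summed to 8.20 to 8.39, 7.82 to 8.42, 7.37 to 7.57 and 7.41 to 7.60 in the same order of groups. The part of either cell type in the diet differences of the members was not tested.

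The relation to the clock was followed within groups, so that the group differences do not enter. Bmal1 averaged 4.00 ± 0.21 log2 in hydrogen CDAA rats and 5.29 ± 0.38 in control CDAA rats, and 4.80 ± 0.20 in hydrogen normal rats and 5.19 ± 0.23 in control normal rats (SD, n = 4 each). Dbp averaged 8.14 ± 0.38 in hydrogen CDAA rats and 5.70 ± 0.71 in control CDAA rats, and 7.37 ± 0.24 in hydrogen normal rats and 6.09 ± 0.49 in control normal rats. Livers with more Bmal1 than their group mean had less Dbp (Pearson r = −0.93, exact two-sided within-group permutation p = 9.95e-05; Spearman rho = −0.96, p = 2.71e-05; 16 arrays). The 2 transcripts are thus nearly 1 axis in these livers. The arrays farthest from the median deviation, for Bmal1 as for Dbp, were both controls, replicate 2 on the CDAA diet and replicate 2 on the normal diet.

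None of the 20 relations of a member with Bmal1 or Dbp passed after Benjamini-Hochberg adjustment, with smallest adjusted p of 0.503 for r and 0.16 for rho by the exact within-group permutation test. Before adjustment 1 of the 20 had p under 0.05 by r and 2 by rho, all of them relations of Rusc2. Rusc2 thus came closest. With Dbp it gave r = 0.61 (permutation p = 0.0252) and rho = 0.68 (permutation p = 0.016), the sign was the same in 4 of 4 groups, and without the 2 farthest arrays r was 0.56. Its values with Bmal1 were r = −0.53 (permutation p = 0.0537) and rho = −0.66 (permutation p = 0.0137), and r = −0.42 without those arrays. Over the 8 CDAA arrays r with Bmal1 was −0.82 (exact permutation p = 0.00174, adjusted p = 0.0347), the single call among the alternatives. That p is the smallest that permuting 2 groups of 4 arrays can give. Its adjustment covered the 20 relations of that setting, not the other alternatives. Over the 8 normal diet arrays r with Bmal1 was −0.02.

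Lgalsl gave positive values with Bmal1 (r = 0.48, rho = 0.35, permutation p = 0.149 and 0.259) and negative values with Dbp (r = −0.57, rho = −0.44, permutation p = 0.0765 and 0.15). Without the 2 farthest arrays these r were 0.25 and −0.34, and control CDAA replicate 2, low in Lgalsl and Bmal1 and high in Dbp, is 1 of them. Tmcc3 gave r = 0.43 with Bmal1 and −0.32 with Dbp. Wasf1 gave −0.31 and 0.37. For Dipk2a, Stambpl1 and Btbd2 every r was between −0.08 and 0.18. Pnrc1 changed sign when the 2 arrays were left out. Its r of 0.13 became −0.46 for Bmal1, and its r of −0.17 became 0.63 for Dbp. Fzd8 and Sirt4 changed sign with both clock genes as well.

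**Figure D3:**
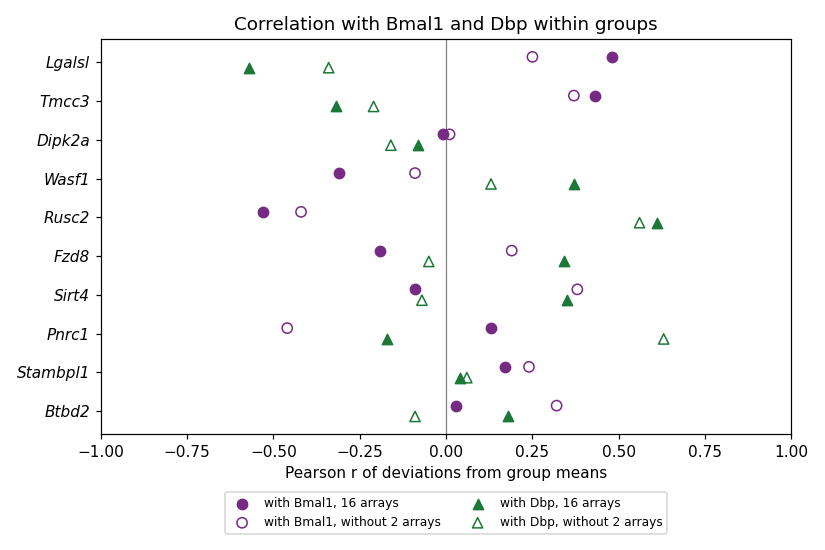
Pearson r (horizontal axis) between the deviations of each gene and those of Bmal1 (circles) or Dbp (triangles) from their group means; filled marks use all 16 arrays and open marks leave out the 2 arrays farthest from the median deviation of the clock gene. Rusc2 keeps its signs, at −0.53 and 0.61 filled and −0.42 and 0.56 open, as do Lgalsl, Tmcc3, Wasf1 and Stambpl1. The marks of Fzd8, Sirt4 and Pnrc1 cross 0 with both clock genes. Those of Btbd2 with Dbp (0.18 to −0.09) and Dipk2a with Bmal1 (−0.01 to 0.01) cross it too.

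**Figure D4:**
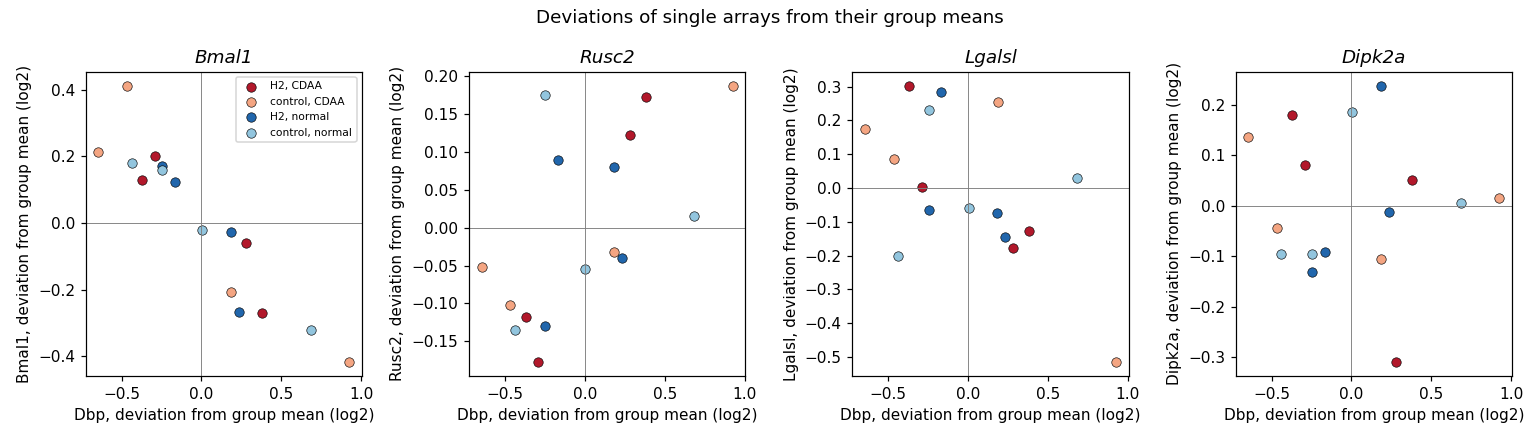
Deviation from the group mean (log2) of Bmal1, Rusc2, Lgalsl and Dipk2a on the vertical axes against that of Dbp on the horizontal axes; each point is 1 array, coloured by group. Bmal1 falls along a line with Dbp, Rusc2 tends upward, and the low Lgalsl point at the right is control CDAA replicate 2.

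Across all probe sets, a slope on Bmal1 within groups was called for 1 gene, Dbp (0.00875% of 11433 genes, limma adjusted p = 0.00282), and a slope on Dbp for 4 genes (0.035%). These were Bmal1 itself, the Period gene Per3, the clock output gene Tef, and Hsd17b2, a steroid dehydrogenase gene. No member was among them, and at an unadjusted p under 0.05 it was 1 of 10 members for Bmal1 (7.76% of all genes) and 2 of 10 for Dbp (11.7%). The member slopes nearest to a call were those on Dbp of Rusc2 (0.17 ± 0.0662 log2 per log2, limma adjusted p = 0.343) and Lgalsl (−0.29 ± 0.111, limma adjusted p = 0.344).

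Hydrogen differences were also fitted with the clock gene level held, as values with no test. With Bmal1 held, the difference on the CDAA diet was −0.82 ± 0.24 for Dipk2a, against −0.82 without it, and −0.57 ± 0.274 for Pnrc1, against −0.69. It was −0.55 ± 0.313 for Lgalsl, against −1.13, and 0.16 ± 0.185 for Rusc2, against 0.52. For Tmcc3 it was −0.58 ± 0.208, against −0.89, for Fzd8 0.40 ± 0.233, against 0.54, and for Sirt4 0.31 ± 0.16, against 0.35. With Dbp held, the values on that diet were −0.75 ± 0.244 for Dipk2a, −0.65 ± 0.22 for Tmcc3, −0.53 ± 0.278 for Pnrc1, −0.43 ± 0.3 for Lgalsl, 0.28 ± 0.229 for Fzd8, 0.19 ± 0.157 for Sirt4 and 0.10 ± 0.18 for Rusc2. On the CDAA diet the difference was thus smallest beside its unheld value for Rusc2 and Lgalsl. The Bmal1 levels of the hydrogen and control groups do not overlap on that diet, and their Dbp levels overlap on neither diet. Where levels do not overlap, the held difference carries a within-group slope across levels that the groups do not share. Holding a clock gene widened the standard errors by 1.94 to 2.33 times on the CDAA diet. On the normal diet, where the widening was 1.05 to 1.5 times, the differences with Bmal1 held were −0.71 ± 0.165 for Lgalsl, 0.75 ± 0.126 for Wasf1, −0.67 ± 0.139 for Stambpl1 and 0.46 ± 0.0877 for Btbd2, against −0.88, 0.83, −0.72 and 0.46 without it. With Dbp held they were −0.52 ± 0.194 for Lgalsl, 0.67 ± 0.153 for Wasf1, −0.74 ± 0.176 for Stambpl1 and 0.41 ± 0.108 for Btbd2. Tmcc3 on the normal diet gave −0.25 ± 0.11 with Bmal1 held and −0.22 ± 0.142 with Dbp held, against −0.35. Rusc2 and Fzd8 became larger in size there. Rusc2 gave −0.25 ± 0.0975 and −0.37 ± 0.116, against −0.14, and Fzd8 −0.29 ± 0.122 and −0.38 ± 0.148, against −0.24.

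Members were also compared with one another within groups, with no test. Of all pairs of members, the highest r were those of Rusc2 with Fzd8 (0.65), Fzd8 with Btbd2 (0.60) and Sirt4 with Stambpl1 (0.53). The lowest was that of Lgalsl with Wasf1 (−0.44). These are descriptions over 16 arrays that share their normalization, and the extremes of many pairs can be this large by chance. Among the 11424 other genes, the 2 most like each member by r of deviations over the 16 arrays were Pclaf and Tcf19 for Lgalsl (0.91 and 0.90), Tmod2 and Taf1c for Tmcc3 (0.89 and 0.86) and Fgf17 and St6galnac4 for Dipk2a (0.85 and 0.84). They were Atp6v0d1 and Elmod3 for Wasf1 (0.91 and 0.86), Efna1 and Pnisr for Rusc2 (0.91 and 0.90), and Nr3c1 and Depp1 for Fzd8 (both 0.87). For Sirt4 they were Taok3 and Bcas3 (both 0.83), for Pnrc1 Psmb8 and Ctsh (0.87 and 0.85), for Stambpl1 Pip5k1c and Fbl (0.84 and 0.80), and for Btbd2 Hsd17b10 and Kiaa0319 (both 0.86). Each is the top of a search through 11424 genes on 16 arrays, where high r also arise by chance. These r carry no test. Pclaf and Tcf19 are genes of proliferating cells, and Nr3c1 encodes the glucocorticoid receptor. None of these 20 genes was called for hydrogen on either diet.

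The families of the members were read as a background for them. In 11 lists of relatives and partners, 0 of 69 tested genes were called by limma for hydrogen on either diet (10 on the CDAA diet and 3 on the normal diet at an unadjusted p under 0.05). The list medians lay between −0.15 and 0.19 on the CDAA diet, where the median of all genes was 0.008. The diet called 46 of the 69 (66.7%), near the 60.6% of all genes, so the counts that follow say little about the families themselves. All 6 galectins and galectin ligands tested rose on the CDAA diet, with a median of 0.89 against 0.044 over all genes, whereas the galectin-like Lgalsl did not pass. Lgals3, a galectin of macrophages, rose 2.84-fold (limma adjusted p = 4.13e-07), Lgals2 2.65-fold and Lgals3bp 2.22-fold.

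Of 5 relatives of Dipk2a, 4 rose with the diet, led by Gask1b at 2.33-fold (3 with quantile normalization applied again), while Dipk2a fell. In the WAVE complex 6 of 9 genes rose and 1 fell. Cyfip2, a subunit that ties WAVE proteins to Rac, rose 2.27-fold, and the WAVE2 gene Wasf2 fell 1.99-fold, with 2 of its 8 CDAA arrays below 3.68 log2. Of 14 Frizzled and Wnt pathway genes 2 rose (3 with each array centred on its median) and 5 fell. The Wnt co-receptor genes Lrp6 and Lrp5 were 1.5-fold and 1.3-fold lower and the receptor gene Fzd4 1.25-fold lower. Tcf7, a transcription factor of the pathway, was 1.44-fold higher.

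Of 6 genes for SIRT4 substrates and related mitochondrial proteins, 3 rose and 2 fell on the CDAA diet. The adenine nucleotide carrier gene Slc25a4 was 1.81-fold higher, the glutamate dehydrogenase gene Glud1 1.33-fold higher and the leucine breakdown gene Mccc2 1.58-fold lower. Among 5 other sirtuins Sirt6 and Sirt3 rose (1.15-fold and 1.23-fold), but with quantile normalization applied again 0 rose and 1 fell. Of 6 relatives and partners of Btbd2, 4 fell and 0 rose, and with each array centred on its median 3 fell. Of 8 other JAMM genes 3 rose and 1 fell (3 and 3 with quantile normalization applied again). Of 6 genes in the list of Rusc2 relatives and Rab partners 3 rose and 2 fell, and of the 2 genes tested in the list of Pnrc1 relatives and decapping factors both rose (1 with quantile normalization applied again). Neither of the 2 other TMCC genes was called. Of 16 clock genes tested for hydrogen on the CDAA diet, limma called 4 higher and 5 lower (4 and 3 with quantile normalization applied again, 4 and 2 with each array centred on its median).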

How the data were processed

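Liver RNA was read on Affymetrix RG-230 PM arrays, 1 per sample. The values deposited by the authors are log2 signals rounded to 2 decimals. Per the submitters' processing notes they were made with Affymetrix Expression Console and RMA (the sources used here state no version). RMA subtracts background, equalises the distribution of signals across arrays and summarises the probes of a set, so a shift common to all transcripts of a group would be removed. Scan date, strip position and detection calls were not used here. A batch of scan date or strip position cannot be told apart from the spread or from the differences between groups.

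Of 31139 probe sets, 97 array controls were set aside, and 22634 passed the filter (4 or more arrays above 3.68 log2, which is the 30th percentile of the table) while 8408 did not. The platform annotation gave 1 symbol for 19063 probe sets, several for 572 and none for 11407, and 18983 of the symbols matched the GRCr8 RefSeq table by Entrez identifier. No 2 arrays held identical values. The 4 group means were estimated together from the 16 arrays with limma 3.58.1 (lmFit and eBayes) in R 4.3.3, with Benjamini-Hochberg adjustment over the tested probe sets and calls at an adjusted p under 0.05. Errors beside differences are standard errors of that fit. The diet average is orthogonal to the hydrogen contrasts in this balanced design, though it shares their estimate of the spread. Correlations used deviations from group means, exact two-sided permutation within groups (331776 arrangements with all 16 arrays) and adjustment over the 20 relations of each setting. The limma fits of the hydrogen contrasts and of the slope were tested on simulated data. The diet average, the interaction, the fits with a clock gene held and the permutation were not. Figures were drawn with matplotlib 3.10.9. The labels count the samples as separate, and p-values measure the spread between them.

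The members, the companion lists, the tests and the alternatives were chosen with earlier results of these data known. Genes named are the members, Bmal1, Dbp, the 2 genes most like each member, and up to 4 called members of each companion list. Per3, Tef and Hsd17b2 were named after their values were seen. Alternatives were the filter, a repeated quantile normalization, centring each array on its median, the mean of all probe sets of a gene, a term for the replicate number, fits to fewer groups, Spearman's rho, and leaving out each array in turn.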

Additional observations from a re-analysis of the deposited data

Results flagged for a closer look

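In the control CDAA group, the lowest Pnrc1 array, replicate 2, measured 9.46 log2 against 9.92, 9.89 and 9.89 for the rest of its group, a gap of 0.935 of the group's whole range which is above Dixon's critical value for 4 samples. It was 1 of 40 sets of 4 arrays examined, and chance alone marks about 1 in 20 such sets. The same liver had the lowest Lgalsl (6.85) and Bmal1 (4.87) and the highest Dbp (6.63) of its group. With that array left out, 346 probe sets were called for hydrogen on the CDAA diet, against 71 with it, and the same 7 members were called.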

How the results depend on the processing

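The 7 member calls for the diet were made in all 16 fits that left out 1 array, and members kept the sign of every called difference under the alternatives run. With the mean of all probe sets of a gene, which tests 11435 genes, 6901 were called for the diet (12714 probe sets otherwise), 46 for hydrogen on the CDAA diet (71), 1 on the normal diet (2), 21 for their average (37) and 0 for the interaction (1). A fit to the 2 groups compared called 2 on the CDAA diet and 17 on the normal diet. Leaving out 1 array gave 21 (without control CDAA replicate 4) to 346 (without control CDAA replicate 2) calls on the CDAA diet, 0 to 11 on the normal diet, 14 to 147 for the average, 0 to 21 for the interaction, and slopes of 0 to 1 probe sets on Bmal1 and 0 to 17 on Dbp. The replicate number as a block gave 82 calls on the CDAA diet, 1 on the normal diet (Wasf1 was lost, adjusted p = 0.0579), 30 for the average, 0 for the interaction, 12919 for the diet and 0 slopes on either clock gene. Member calls under the block were 6 on the CDAA diet (Sirt4 lost, adjusted p = 0.0599), 0 on the normal diet, 2 for the average (5 without it) and 7 for the diet. Sirt4 was also lost with centring (0.0549), quantile normalization (0.0595) and the 2 groups alone (0.364), and was called in 4 of 16 fits that left out 1 array. The deviations of 24 same-numbered pairs correlated at −0.129 to 0.325, 9 of them over 0.1 and not all pairs of any 2 groups, so the numbers were not taken to pair the arrays. Of 16 arrays, 11 correlated best with an array of their own number, a hint from the data, not the design. Slopes were called for 0 probe sets in the CDAA groups or the normal diet groups alone, which hold fewer arrays, against 1 on Bmal1 and 5 on Dbp in all groups. In the CDAA groups 1 member, Rusc2, was called with Bmal1.

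Read as the mean of its probe sets, Btbd2 differed with hydrogen by 0.23 on the normal diet and Dipk2a by −0.36 on the CDAA diet. Weak correlations changed sign in places, and the cause was not tested. For Btbd2 with Bmal1 (0.03) rho was −0.15, the probe set mean gave −0.01, the block −0.11 and leaving out 1 array −0.12 to 0.20. For Dipk2a with Bmal1 (−0.01) centring gave 0.01, the probe set mean 0.10, the block 0.16, the CDAA groups 0.23 and leaving out 1 array −0.09 to 0.05. With Dbp, Dipk2a gave 0.45 in the normal diet groups and −0.16 to 0.06 leaving out 1 array. Fzd8 with Bmal1 gave 0.01 in the normal diet groups and −0.41 to 0.17 leaving out 1 array, and −0.05 to 0.51 with Dbp. Sirt4 with Bmal1 gave 0.03 in the CDAA groups and −0.53 to 0.14 leaving out 1 array. Stambpl1 with Dbp gave a rho of −0.06, −0.27 under the block, −0.15 in the normal diet groups and −0.29 to 0.22 leaving out 1 array, and with Bmal1 −0.08 to 0.42. Pnrc1 gave −0.26 to 0.25 with Bmal1 and −0.29 to 0.32 with Dbp leaving out 1 array. Signal over background limits Sirt4, whose values lie near the filter line.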
